A study of Mus musculus with 15 samples.

Results

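The 33 genes described here encode chaperones, disulfide isomerases, stress sensors and degradation factors of the endoplasmic reticulum (ER), the compartment in which secreted and membrane proteins are folded. They were taken by symbol from the 23337 gene symbols of the count files, and all 33 were found. One of them is listed under the older symbol H47 and is now called Selenos. RNA was sequenced from progenitors of mouse bone marrow, in mice labelled Trappc1WT (wild type, WT) or Trappc1KO (knockout, KO), all with the treatment given as none. The sorted populations were CMP (common myeloid progenitors; Lin-Sca1-CD117+CD34+ and low for CD16/32) and GMP (granulocyte-monocyte progenitors; the same gate, high for CD16/32). CMP was measured in 4 WT and 4 KO libraries, and GMP in 4 WT and 3 KO libraries, the latter numbered 1, 3 and 4. Number 2 of KO GMP was not analysed here. Age, sex, strain, the way Trappc1 was deleted and whether each library came from its own animal are not given in the labels. The p-values therefore measure library-to-library spread, which could be technical.

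TRAPP complexes, of which Trappc1 is a core part, tether vesicles on the route from the ER to the Golgi. Inside the ER, the Hsp70 chaperone BiP (Hspa5) and the Hsp90 chaperone GRP94 (Hsp90b1) bind unfolded proteins, the lectins calnexin and calreticulin hold glycoproteins, and the protein disulfide isomerases form their disulfide bonds. When unfolded protein builds up, the sensors IRE1 (Ern1) and ATF6 become active. IRE1 splices the mRNA of the transcription factor XBP1, ATF6 is cut in the Golgi to release a transcription factor, and both factors induce chaperones and the machinery of ER-associated degradation (ERAD), which sends misfolded proteins to the proteasome. In the myeloid lineage these genes serve cells that make large amounts of granule protein. Gene-level counts do not separate the spliced from the unspliced Xbp1 mRNA, so the values below are total mRNA levels and no measure of sensor activity.

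The ER stress element, to which ATF6 and its partner NF-Y bind, is the best known shared sequence of this family. Its share among the members is therefore a description and no independent finding. Promoter windows from RefSeq (GRCm38.p6), running from 250 bases before to 50 bases after a transcription start, were found for 29 of the 33 members. Manf, Derl1, Hyou1 and Atf6 had no entry. The element was searched on both strands as the letters CCAAT, any 9 bases, then CCACG. It was found in 39 of all 32851 windows (0.119%) and in 9 of the 29 members with a window. A related element, ERSE-II, was searched as ATTGGNCCACG and found in 12 windows (0.0365%), 2 of them of members, Herpud1 and Dnajb11. The match of Dnajb11 lies after the start and is not printed. No window held both elements. The letters TGACGTGG, a site described for XBP1, were found in 222 windows (0.676%) and in 0 of the 29 members with a window. A match is a description of the letters and was not tested for binding. The stretches before the start are given 5′ to 3′ on the strand of the gene, with the element in capitals. An element lying on the other strand reads CGTGG first.
Hspa5: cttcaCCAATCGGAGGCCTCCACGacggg
Hsp90b1: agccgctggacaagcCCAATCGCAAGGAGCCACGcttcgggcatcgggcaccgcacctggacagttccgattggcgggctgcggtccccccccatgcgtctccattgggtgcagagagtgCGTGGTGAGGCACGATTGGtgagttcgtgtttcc
Calr: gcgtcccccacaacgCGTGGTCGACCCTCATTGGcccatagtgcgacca
Canx: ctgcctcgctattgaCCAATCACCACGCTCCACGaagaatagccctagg
Pdia6: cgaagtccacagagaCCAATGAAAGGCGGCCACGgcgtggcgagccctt
Dnajc3: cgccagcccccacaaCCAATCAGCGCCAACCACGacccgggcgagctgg
Creld2: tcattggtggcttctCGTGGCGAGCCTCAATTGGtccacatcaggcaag
Syvn1: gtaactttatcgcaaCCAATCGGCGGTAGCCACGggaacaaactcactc
Derl3: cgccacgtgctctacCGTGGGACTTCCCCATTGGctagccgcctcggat
Herpud1: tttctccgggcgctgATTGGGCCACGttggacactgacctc

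Of these, only the stretch of Hsp90b1 holds 2 copies, 1 on each strand. On GRCm38.p6 the stretches lie at chr2:34772020-34772048 (Hspa5, plus strand), chr10:86705518-86705671 (Hsp90b1, minus), chr8:84847060-84847108 (Calr, minus), chr11:50325785-50325833 (Canx, minus), chr12:17266476-17266524 (Pdia6, plus), chr14:118937812-118937860 (Dnajc3, plus), chr15:88819505-88819553 (Creld2, plus), chr19:6046517-6046565 (Syvn1, plus), chr10:75893227-75893275 (Derl3, plus) and chr8:94386362-94386402 (Herpud1, plus). GENCODE M21 places an exon over the Hspa5 stretch, and it is therefore shown with 5 bases on each side instead of 15.

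Library totals ran from 61.3 M to 120.3 M deposited units (M, mega), or about 15.3 M to 30.1 M fragments when 4 units are taken as 1 fragment. Derl3 was the shallowest member, with 78 units in its lowest library, and each of the other 32 members had at least 2217 units in every library. Trappc1 itself measured 18.4, 26.2, 18.8 and 25.2 CPM (counts scaled to a common library size) in WT CMP 1 to 4, and 5.56, 3.83, 11.7 and 13.4 CPM in KO CMP 1 to 4. It measured 41.3, 37, 30.9 and 33.3 CPM in WT GMP 1 to 4, and 6.09, 24.1 and 25.2 CPM in KO GMP 1, 3 and 4. It was thus below every WT library of its cell type in each KO library, but the level that remained was highest in KO libraries 3 and 4. KO CMP 1, KO CMP 2 and KO GMP 1 stood apart: Xist measured 109, 204 and 123 CPM there and at most 2.17 CPM in each of the other 12 libraries. Earlier results of these data showed that the WT libraries also part by number. Each comparison is therefore given over all libraries, within numbers 1 and 2, and within numbers 3 and 4. The labels do not say what the numbers stand for. Of the gate markers Kit, Cd34, Fcgr3, Fcgr2b and Ly6a, all 5 were above 0 in every group. Their summed level was 1040 to 1160 CPM in WT CMP and 912 to 996 CPM in WT GMP. The sum hides opposite moves. By the test described below, 2 were higher and 2 lower in KO CMP 1 and 2 than in WT CMP 1 and 2 (log2 change -2.76 to 1.14). Between WT CMP 1 and 2 and WT CMP 3 and 4, 2 were higher and 2 lower (-1.71 to 1.5). For KO GMP 1 against WT GMP 1 and 2, log2 changes ran from -1.03 to 1.88. Their part in the members' values was not tested.

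Levels of the members differed widely. In CPM per kilobase of exon (GENCODE M21), the calcium-binding lectin calreticulin (Calr) was highest in WT CMP at 911 ± 79.6 (SD, n = 4), and did not overlap the next gene. P4hb, Sec61b, Pdia3, Hspa5 and Hsp90b1 followed, between 372 ± 88.3 and 289 ± 43.8 CPM per kilobase (SD, n = 4), and each of these overlapped its neighbour in the order. The same 7 genes, with Pdia6 as the seventh, led the order in WT GMP. The sensors Ern1 and Atf6 were low, at 14.8 ± 3.83 and 12.7 ± 1.72 CPM per kilobase in WT CMP (SD, n = 4). Atf6b, a relative of Atf6, stood higher at 47.2 ± 1.51 CPM per kilobase (SD, n = 4). Derl3, a derlin of secretory cells, was lowest at 2.44 ± 0.97 CPM per kilobase (SD, n = 4). Exons of other genes cover 21.6% of the exon length of Hsp90b1, 7.3% of Manf and 5.4% of Derl2, and at most 2.5% of any other member; the assignment of such reads was not given in the sources used here.

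**Figure D1:**
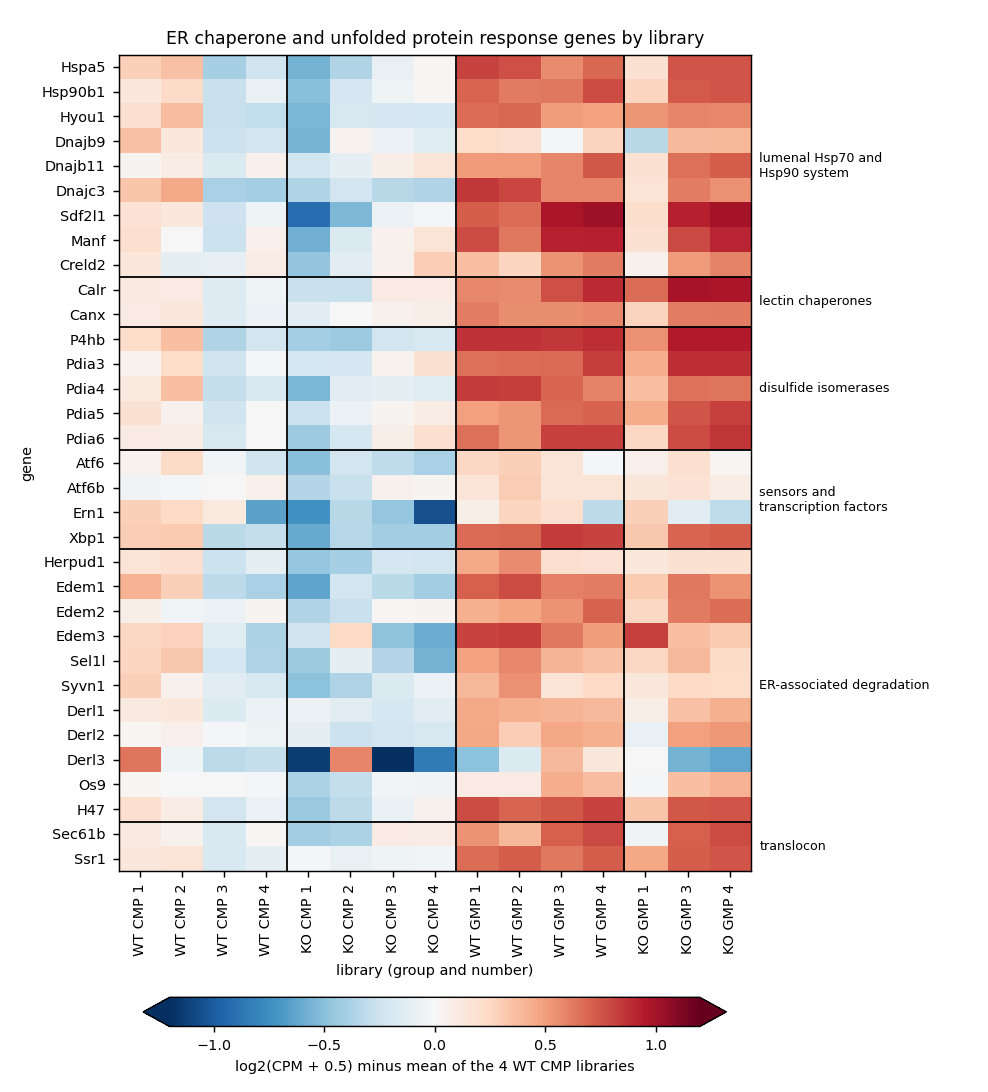
Each cell is 1 gene (rows, in role groups) in 1 library (columns), coloured by log2(CPM + 0.5) minus the mean of the 4 WT CMP libraries; red is higher and blue lower, and values past 1.2 take the end colour. The GMP columns are red for most genes, WT CMP 1 and 2 are redder than WT CMP 3 and 4, and KO CMP 1 and KO GMP 1 are the bluest columns of their cell types.

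From CMP to GMP the ER folding machinery rose as a group. In WT, 26 of the 33 members passed the test (edgeR's quasi-likelihood test, Benjamini-Hochberg adjusted p under 0.05 over 15181 genes) and all 26 were higher in GMP, against 11.3% of all tested genes called higher. The median log2 change of the members was 0.60, against -0.015 over all tested genes. In KO, 28 members passed and all were higher in GMP, against 10.7% of all genes, with a median log2 change of 0.70. Summed over the 33 members, the level was 8612 to 11618 CPM in WT CMP and 15652 to 16780 CPM in WT GMP, with no overlap. In bulk libraries, more cells that express a gene and more RNA per cell cannot be told apart. The 8 primary granule markers (Elane, Mpo, Prtn3, Ctsg, Ms4a3, Gstm1, Cebpe and Gfi1) moved the same way, 8 of 8 higher in WT GMP, with a summed level of 11700 to 24900 CPM in WT CMP and 40600 to 44300 CPM in WT GMP. Mast cell, basophil and eosinophil markers were higher in 7 of 10 cases (171 to 534 CPM summed in WT CMP, 2760 to 7740 CPM in WT GMP), and stem cell and megakaryocyte markers were lower in 9 of 10 and 8 of 9. Their part in the members' rise was not tested.

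Among the Hsp70 and Hsp90 chaperones and their cofactors, 8 of 9 rose in WT. Hspa5 (BiP; ENSMUSG00000026864.13, chromosome 2, 34771970 to 34777547) measured 1315, 1371, 820 and 912.5 CPM in WT CMP 1 to 4 and 1890, 1848, 1602 and 1737 CPM in WT GMP 1 to 4. All GMP libraries were above all CMP libraries, and the CMP libraries parted by number. The log2 change of Hspa5 was 0.68 ± 0.18 (SE). Sdf2l1 (chromosome 16, 17130138 to 17132383), which works with the J-domain protein Dnajb11 to keep clients soluble, measured 122, 118, 90.5 and 103.5 CPM in WT CMP and 179, 172, 212 and 219 CPM in WT GMP. It had the largest log2 change of the members, 0.85 ± 0.20 (SE; adjusted p = 0.00801). Manf, a secreted ER-resident cofactor of BiP, rose by 0.82 ± 0.17 (SE; adjusted p = 0.00412), Hsp90b1 by 0.67 ± 0.14 (SE; adjusted p = 0.00343) and Dnajb11 by 0.59 ± 0.12 (SE; adjusted p = 0.00323). Dnajb9 (ERdj4), a J-domain protein that holds IRE1 inactive, was the exception, with 57, 48.6, 37.3 and 38.2 CPM in WT CMP and 51.9, 50.9, 44.2 and 53.7 CPM in WT GMP. Its groups overlapped.

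Both lectin chaperones rose in WT. Calr (chromosome 8, 84841850 to 84846934) measured 2136, 2130, 1779 and 1917 CPM in WT CMP and 2964, 2933, 3402 and 3689 CPM in WT GMP, a log2 change of 0.71 ± 0.12 (SE; adjusted p = 0.00111). Canx, its membrane-bound counterpart, rose by 0.57 ± 0.09 (SE; adjusted p = 0.000803). All 5 disulfide isomerases rose, with log2 changes of 0.60 to 0.83. P4hb (PDI itself, also a subunit of prolyl 4-hydroxylase; chromosome 11, 120560298 to 120573253) measured 1211, 1340, 810 and 894 CPM in WT CMP and 1902, 1894, 1873 and 1918 CPM in WT GMP. The GMP libraries lay close together and above all CMP libraries, with a log2 change of 0.83 ± 0.15 (SE; adjusted p = 0.00122). Pdia3, which works with the lectins on glycoproteins, rose by 0.70 ± 0.13 (SE; adjusted p = 0.00153). At the translocon, Ssr1 had the smallest adjusted p of all members (0.000232; log2 change 0.68 ± 0.09, SE), and Sec61b, the beta subunit of the channel, rose by 0.62 ± 0.17 (SE; adjusted p = 0.0185).

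Of the 4 sensors and their transcription factors, Xbp1 alone passed the test in WT. Xbp1 (chromosome 11, 5520659 to 5525893) measured 179, 180, 116 and 119 CPM in WT CMP and 233, 234, 260 and 255 CPM in WT GMP, a log2 change of 0.73 ± 0.15 (SE; adjusted p = 0.00301). Ern1 measured 143, 138, 128 and 75.2 CPM in WT CMP and 123, 141, 134 and 94.6 CPM in WT GMP, so its groups overlapped (log2 change 0.02 ± 0.21, SE; adjusted p = 0.947). Atf6 and its relative Atf6b had log2 changes of 0.17 ± 0.10 and 0.20 ± 0.09 (SE; adjusted p = 0.248 and 0.119). In KO, Atf6 passed the test (0.44 ± 0.11, SE; adjusted p = 0.0107), while Ern1 (0.60 ± 0.22, SE) had an adjusted p of 0.0738. No contrast tested a sensor against its targets.

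Of the 11 ERAD members, 8 rose in WT and 10 in KO. H47 (Selenos), which links the derlins to the extraction machinery, measured 72.3, 66.6, 53.8 and 59.6 CPM in WT CMP and 108, 102, 105 and 110 CPM in WT GMP, a log2 change of 0.76 ± 0.13 (SE; adjusted p = 0.000945). Edem1 and Edem2, which trim mannose from misfolded glycoproteins, rose by 0.64 ± 0.16 and 0.54 ± 0.11 (SE; adjusted p = 0.011 and 0.00324). Derl1 rose by 0.42 ± 0.09 (SE; adjusted p = 0.0035). Syvn1, the ubiquitin ligase HRD1, and Os9, a lectin that delivers clients to it, did not pass in WT, with log2 changes of 0.33 and 0.26, and passed in KO with 0.47 and 0.44. The difference between genotypes was not past the threshold for any member, as described with the KO effects. Derl3 did not pass in either genotype.

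**Figure D2:**
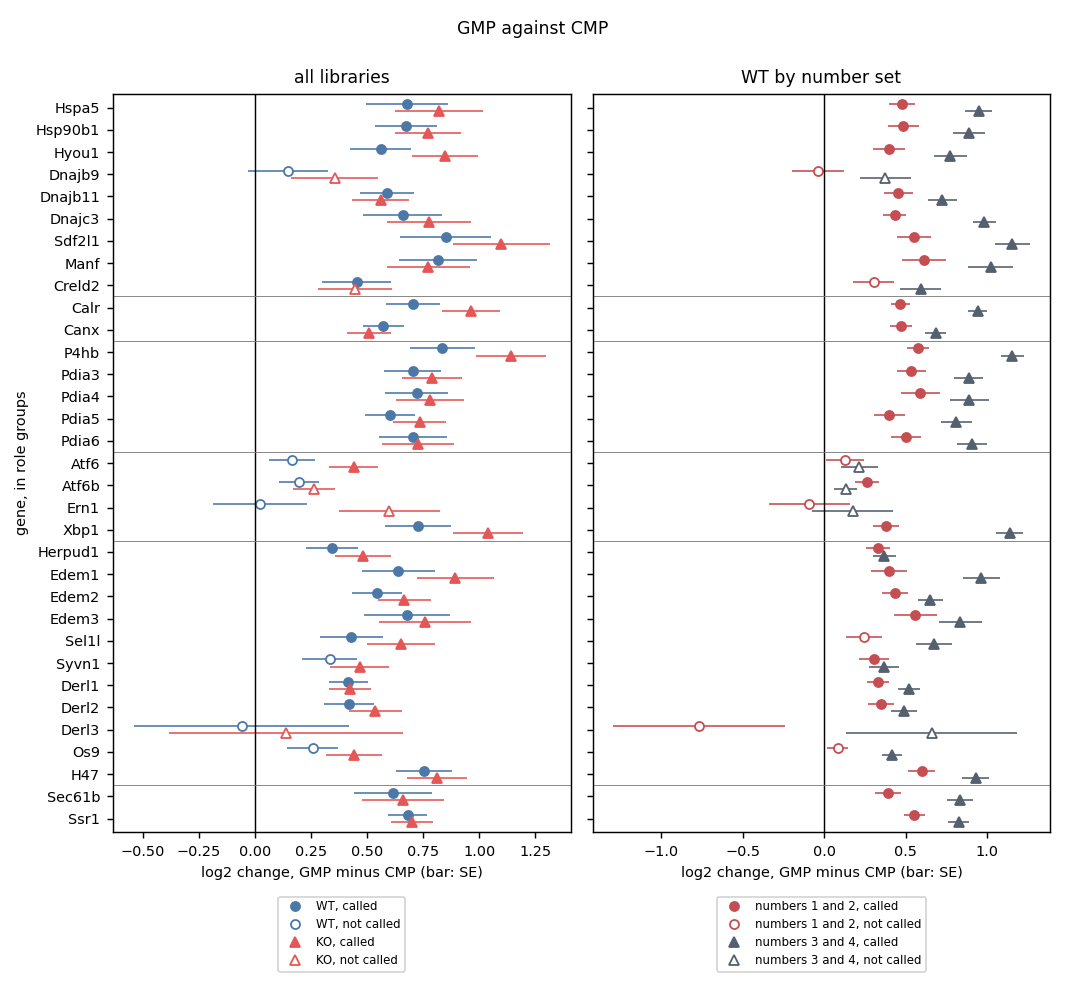
Log2 change from CMP to GMP for each gene (rows) with its standard error, in WT and KO over all libraries (left) and in WT within each number set (right); filled symbols passed the test. Nearly all points lie right of 0, and in the right panel the triangles of numbers 3 and 4 lie right of the circles of numbers 1 and 2 for 32 of 33 genes.

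The size of the WT step depended on the library numbers. Within numbers 1 and 2, 26 members were higher in GMP (11.0% of all tested genes), with a median log2 change of 0.40, and within numbers 3 and 4, 28 were (19.2% of all genes), with a median of 0.81. The difference between the sets, tested in the same fit and chosen after the data were seen, passed for 7 members, all with the smaller step in numbers 1 and 2, against 3.89% of all genes. They were P4hb, Xbp1, Calr, Dnajc3, Hspa5, Sdf2l1 and Sec61b. The count was 4 without WT CMP 1, WT CMP 2, WT CMP 3, WT GMP 2 or WT GMP 4, and 11 without KO CMP 1 or KO CMP 2, which enter through the shared spread. Xbp1 rose by 0.38 in numbers 1 and 2 and by 1.14 in numbers 3 and 4, a difference of -0.76 ± 0.11 (SE; adjusted p = 0.00187). In KO, numbers 3 and 4 alone gave 30 members higher in GMP, against 17.9% of all genes, with a median of 0.73. Numbers 1 and 2 hold a single KO GMP library, and that step is not described.

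The WT CMP number sets differed in the members themselves. The sets were chosen because earlier results of these data showed the WT libraries parting by number. That choice favoured calls between the sets, so the counts and adjusted p-values here are a description. In WT CMP, 18 members were higher in libraries 1 and 2 than in 3 and 4, and 0 were lower, against 12.3% of all genes called higher; the median log2 difference was 0.29. Dnajc3 (p58IPK, a BiP cofactor that restrains the kinase PERK; chromosome 14, 118937976 to 118981697) measured 214 and 232.5 CPM in WT CMP 1 and 2, and 130 and 128 CPM in WT CMP 3 and 4, a difference of 0.79 ± 0.07 (SE; adjusted p = 1.81e-05). P4hb differed by 0.58 ± 0.07 (SE; adjusted p = 0.000121) and Hspa5 by 0.63 ± 0.08 (SE; adjusted p = 0.000267). The 8 granule markers were also all higher in WT CMP 1 and 2, at a summed 22400 to 24900 CPM against 11700 to 12600 CPM. Of 14 B and plasma cell markers 1 was higher there and 1 lower (379 to 480 CPM summed against 153 to 171 CPM), and of 12 stroma and endothelium markers 5 were higher and 1 lower (233 to 237 CPM against 160 to 166 CPM). Mast cell, basophil and eosinophil markers were higher in 5 of 10 cases (526 to 534 CPM against 171 to 196 CPM), and of 10 late neutrophil markers 4 were higher and 3 lower (241 to 277 CPM against 52.6 to 64.8 CPM). Of 10 plasmacytoid and dendritic cell markers 4 were lower, and of 10 stem cell markers 5 were lower and 1 higher. Their part in the difference was not tested. Without WT CMP 2, 11 members passed. In WT GMP, by contrast, 1 member was higher in numbers 1 and 2 (Herpud1; 3.16% of all genes) and 3 were lower (Calr, Os9 and Sec61b; 5.45% of all genes), with a median difference of 0.00 over the members. These WT GMP counts moved with single libraries: leaving out WT GMP 2, 3 or 4 gave 0 higher, and leaving out WT GMP 1 or 2 gave 0 lower.

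Over all libraries, no member passed the test for KO against WT. Neither did Trappc1 itself. Its log2 change was -1.36 ± 0.41 in CMP and -0.95 ± 0.45 in GMP (SE, edgeR adjusted p = 0.243 and 0.77). A count of 0 therefore does not show that the members were unchanged. In CMP, 0 of 33 members passed in edgeR, against 0% of all tested genes, and 0 in DESeq2, which called 133 genes higher and 227 lower in all. At an unadjusted p under 0.05 there were 9 members, against 1761 of 15181 genes. All 33 point estimates were below 0, with a median of -0.19. The smallest adjusted p belonged to Atf6 (log2 change -0.36 ± 0.10, SE; adjusted p = 0.212). Ern1 measured 70.8, 92.9, 85.1 and 56.3 CPM in KO CMP 1 to 4 against 143, 138, 128 and 75.2 CPM in WT CMP 1 to 4, a log2 change of -0.67 ± 0.21 (SE; adjusted p = 0.257). KO CMP 2 and 3 lay above the lowest WT library, so the groups overlapped. Xbp1 measured 95.3, 115, 108.5 and 108 CPM in KO CMP, below the 116 CPM of the lowest WT library (log2 change -0.48 ± 0.15, SE; adjusted p = 0.244).

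In GMP, 0 of 33 members passed in edgeR (0% of all genes) and 0 in DESeq2, which called 48 genes higher and 12 lower in all. At an unadjusted p under 0.05 there were 0 members and 985 genes. The median log2 change was -0.09. The KO effect in CMP minus that in GMP passed for 0 members by either tool (0% of all genes in edgeR), with 0 members and 451 genes at an unadjusted p under 0.05. Without KO CMP 1, KO CMP 2 and KO GMP 1, 0 members passed in either cell type, and the median log2 change was -0.08 in CMP and 0.04 in GMP.

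**Figure D3:**
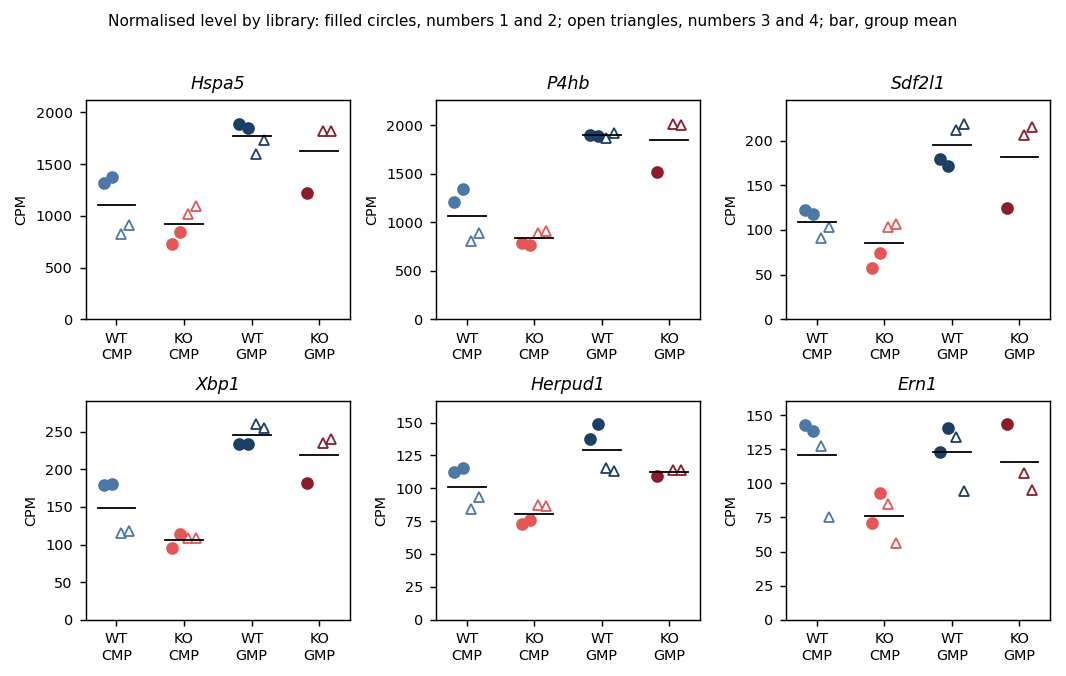
CPM of 6 members in each library by group, with filled circles for library numbers 1 and 2, open triangles for numbers 3 and 4 and a bar at the group mean; each axis starts at 0. For Hspa5 and P4hb the WT CMP circles lie above the WT CMP triangles, while the KO CMP circles lie below the KO CMP triangles.

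Within number sets the KO effect in CMP took 2 different forms. In numbers 1 and 2, 24 of 33 members were lower in KO and 0 higher, against 10.2% of all genes called lower, with a median log2 change of -0.47. In numbers 3 and 4, 0 members passed in edgeR or DESeq2 (0.00659% of all genes in edgeR). Trappc1 did not pass there in edgeR either, at a log2 change of -0.80 ± 0.19 (SE, adjusted p = 0.263). At an unadjusted p under 0.05 there were 7 members, against 1729 of 15181 genes, and the median was 0.08. The difference between the 2 effects was itself past the threshold for 18 members, all with the lower value in numbers 1 and 2, against 4.59% of all genes, with a median of -0.59. The WT difference between the sets (median log2 0.29 over the members in CMP) enters this contrast directly. The sets were chosen because the WT libraries of these data part by number. Counts and adjusted p-values within and between the sets, here and in GMP, are therefore a description. In each set 2 KO libraries stood against 2 WT libraries. In numbers 1 and 2, Xist measured 109 and 204 CPM in KO CMP and 2.17 and 0.833 CPM in WT CMP. Genotype and this difference cannot be told apart there. The granule markers moved with the members: 8 of 8 were lower in KO CMP 1 and 2, at a summed 4720 to 5360 CPM against 22400 to 24900 CPM in WT CMP 1 and 2, and in numbers 3 and 4 they stood at 11900 to 12400 CPM in KO and 11700 to 12600 CPM in WT. Of 9 monocyte and macrophage markers, 6 were lower and 1 higher in KO CMP 1 and 2 (299 to 493 CPM against 1790 to 2020 CPM summed). Stem cell markers were higher there in 7 of 10 cases (769 to 835 CPM against 457 to 492 CPM) and megakaryocyte markers in 6 of 9 (692 to 966 CPM against 437 to 439 CPM), and stroma and endothelium markers in 8 of 12 (305 to 373 CPM against 233 to 237 CPM, with 1 lower). Mast cell, basophil and eosinophil markers were lower in 6 of 10 cases, and late neutrophil markers in 5 of 10. The part of these cell type markers in the result was not tested.

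BiP shows the pattern. Hspa5 measured 728 and 839 CPM in KO CMP 1 and 2 against 1315 and 1371 CPM in WT CMP 1 and 2, a log2 change of -0.78 ± 0.08 (SE; adjusted p = 3.17e-05). In numbers 3 and 4 it measured 1015 and 1091 CPM in KO against 820 and 912.5 CPM in WT, a change of 0.28 ± 0.08 (SE; adjusted p = 0.304). The 2 effects differed by -1.06 ± 0.12 (SE; adjusted p = 0.000134). The KO values of numbers 1 and 2 were near those of WT CMP 3 and 4, and WT CMP 1 and 2 were the highest of the 8 CMP libraries. Sdf2l1 went further, to 56.9 and 73.7 CPM in KO CMP 1 and 2, below all 4 WT CMP libraries, and had the largest fall of the members at -0.87 ± 0.11 (SE; adjusted p = 0.000106). Dnajc3, Hyou1 and Hsp90b1 also fell in numbers 1 and 2, Dnajc3 by 0.69 ± 0.07 (SE; adjusted p = 2.5e-05).

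In the other roles, P4hb had the smallest adjusted p. It measured 783 and 769 CPM in KO CMP 1 and 2 against 1211 and 1340 CPM in WT, a change of -0.72 ± 0.07 (SE; adjusted p = 1.23e-05), and 894 and 909 CPM in KO against 810 and 894 CPM in WT in numbers 3 and 4. Pdia3, Pdia4 and Pdia6 also fell in numbers 1 and 2, while Pdia5 had a change of -0.28 and did not pass. Of the lectins, Calr fell by 0.37 ± 0.06 (SE; adjusted p = 0.000691), and Canx had a change of -0.18 with an adjusted p of 0.0815. All 4 sensors and transcription factors fell in numbers 1 and 2: Xbp1 by 0.77 ± 0.08, Atf6 by 0.49 ± 0.11, Atf6b by 0.28 ± 0.07 and Ern1 by 0.78 ± 0.25 (SE; adjusted p = 2.99e-05, 0.0099, 0.0168 and 0.0481). The difference between the sets was tested for all 4 and passed for Xbp1 (-0.66 ± 0.11, SE; adjusted p = 0.00333), with adjusted p of 0.379 for Atf6, 0.114 for Atf6b and 0.75 for Ern1. Ern1 had an estimate below 0 in both sets, -0.78 in numbers 1 and 2 and -0.52 ± 0.25 (SE; adjusted p = 0.454) in numbers 3 and 4.

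Among the ERAD members, 8 of 11 fell in CMP numbers 1 and 2. Herpud1, which recruits ubiquilin to the ligase complex (chromosome 8, 94386438 to 94395377), measured 72.6 and 75.9 CPM in KO CMP 1 and 2 against 112.5 and 116 CPM in WT, a change of -0.62 ± 0.07 (SE; adjusted p = 7.03e-05). In numbers 3 and 4 it measured 87.6 and 86.4 CPM in KO, between the 84 and 93 CPM of WT. Edem1 fell by 0.77 ± 0.11, Syvn1 by 0.61 ± 0.09 and H47 by 0.53 ± 0.08 (SE; adjusted p = 0.00041, 0.000597 and 0.000731). Edem3, Derl2 and Derl3 did not pass, with changes of -0.25, -0.22 and -0.42. At the translocon Sec61b fell by 0.48 ± 0.08 (SE; adjusted p = 0.001) and Ssr1 had a change of -0.20 with an adjusted p of 0.0531.

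**Figure D4:**
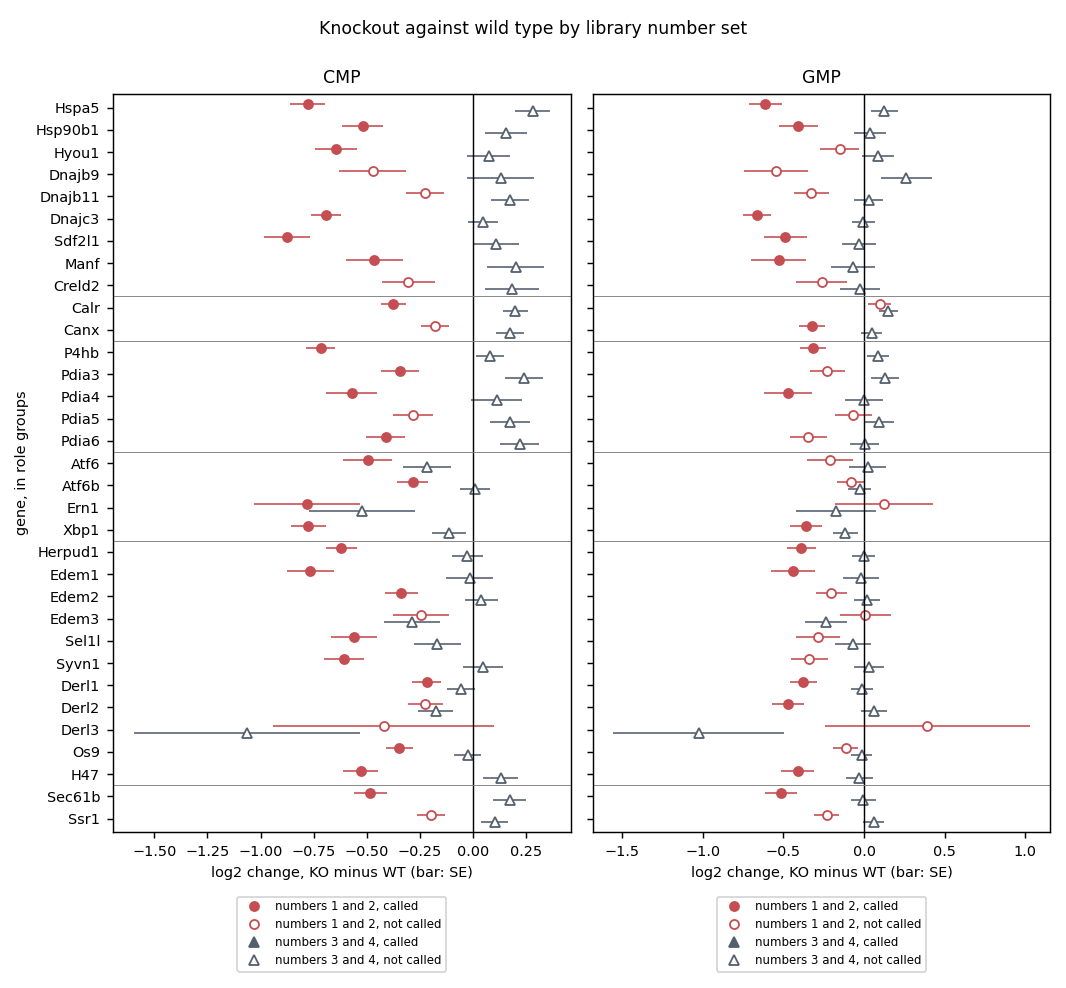
Log2 change of KO against WT for each gene (rows) with its standard error, in CMP (left) and GMP (right), with circles for numbers 1 and 2 and triangles for numbers 3 and 4; filled symbols passed the test. In CMP all 33 circles lie left of 0 and 24 are filled, while 22 of the 33 triangles lie right of 0 and none is filled.

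In GMP, numbers 1 and 2 set a single KO library, KO GMP 1, against 2 WT libraries. The spread of the lone library was assumed to be that of the others, so the calls and adjusted p-values have no replicate on the KO side and set that library, not the genotype, against WT. In that comparison 15 members were lower in KO and 0 higher, against 9% of all genes called lower, with a median log2 change of -0.33. The count rested on the WT libraries, with 5 members without WT GMP 1 and 9 without WT GMP 2. In numbers 3 and 4, 0 members passed in edgeR or DESeq2 (0.0132% of all genes in edgeR). Trappc1 did not pass there in edgeR either, at a log2 change of -0.38 ± 0.19 (SE). At an unadjusted p under 0.05 there was 1 member, against 789 of 15181 genes, and the median was -0.00. The difference between the sets, which rests on the same lone library, passed for 7 members, all lower in numbers 1 and 2, against 4.36% of all genes: Dnajc3, Hspa5, Derl2, Sec61b, P4hb, Canx and Derl1. That count was 2 without KO GMP 3, KO GMP 4, WT GMP 1 or WT GMP 3, 3 without WT GMP 4, 4 without WT GMP 2, KO CMP 3 or KO CMP 4, and 13 without KO CMP 1 or KO CMP 2. The 8 granule markers summed to 22400 CPM in KO GMP 1, 40600 to 41700 CPM in WT GMP 1 and 2, and 43900 to 46400 CPM in GMP numbers 3 and 4 of both genotypes. Stem cell markers were higher in KO GMP 1 in 8 of 10 cases (351 CPM summed against 189 to 198 CPM in WT GMP 1 and 2) and megakaryocyte markers in 8 of 9 (397 CPM against 116 to 129 CPM). Stroma and endothelium markers summed to 271 CPM in KO GMP 1 against 233 to 237 CPM in WT GMP 1 and 2. Their estimates were above 0 for 11 of 12 and below 0 for 1, with a median log2 difference of 5.53. That median rests in part on genes near the floor, as Col6a2, Col6a3 and Cdh5 were at 0 in WT GMP 1 and 2. Plasmacytoid and dendritic cell markers summed to 535 CPM against 203 to 204 CPM, with estimates above 0 for 7 of 10 and below 0 for 2. Of 9 monocyte and macrophage markers 3 were lower and 1 higher (882 CPM against 4180 to 4490 CPM), and of 10 late neutrophil markers 5 were lower and 2 higher (69.2 CPM against 283 to 306 CPM). Their part in the result was not tested.

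Hspa5 measured 1223 CPM in KO GMP 1 against 1890 and 1848 CPM in WT GMP 1 and 2 (log2 change -0.61 ± 0.10, SE; adjusted p = 0.00123), and 1823 and 1821 CPM in KO GMP 3 and 4 against 1602 and 1737 CPM in WT. KO GMP 1 lay below every WT GMP library and inside the range of WT CMP. Dnajc3 measured 190 CPM there against 306 and 297 CPM (-0.66 ± 0.09, SE; adjusted p = 0.000252), and Sec61b 189 CPM against 283 and 258 CPM (-0.52 ± 0.10, SE; adjusted p = 0.00309). Calr did not follow: it measured 3155 CPM in KO GMP 1 against 2964 and 2933 CPM, with a change of 0.10 ± 0.07 (SE; adjusted p = 0.376). Derl1 and Derl2, channel-like subunits of the ERAD complex, fell by 0.38 ± 0.08 and 0.47 ± 0.10 (SE; adjusted p = 0.00739 and 0.00602). Ern1 measured 143.5 CPM in KO GMP 1, above the 123 and 141 CPM of WT GMP 1 and 2 (adjusted p = 0.831), and Hyou1 428 CPM, within the range of WT GMP.

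The wider ER pathway was read from a list of 110 further genes for signal peptide recognition, glycosylation, oxidative folding, co-chaperones, degradation and the PERK and ATF6 arms. From CMP to GMP in WT, 50 of the 110 were higher and 3 lower, with a median log2 change of 0.31. Of all 15181 tested genes, 1721 were higher and 2151 lower. By part, 16 of 23 translocation genes and 12 of 16 glycosylation genes rose, against 11.3% of all tested genes. Of oxidative folding genes 8 of 20 rose, of degradation factors 7 of 21, of the ATF6 and CREB3 part 3 of 9, of co-chaperones 1 of 12 with 1 lower, and of the PERK arm 3 of 9 with 2 lower. Ddost and Rpn2, subunits of the oligosaccharyltransferase, rose by 0.66 ± 0.10 and 0.54 ± 0.09 (SE; adjusted p = 0.000481 and 0.000803), and Dnajc10, an ER disulfide reductase, by 0.52 ± 0.07 (SE; adjusted p = 0.000372). Ppp1r15a (GADD34), which reverses the translation block set by PERK, measured 171, 119, 180 and 208.5 CPM in WT CMP and 79.6, 77.2, 75.6 and 86.1 CPM in WT GMP, a change of -1.09 ± 0.13 (SE; adjusted p = 0.000177). Trib3, a target of the same arm, was low throughout, at 1.09 to 2.44 CPM in WT CMP and 0 to 0.17 CPM in WT GMP (adjusted p = 0.00192). The third gene lower, Clgn, was listed at 0 in all WT GMP libraries and at no more than 0.14 CPM in WT CMP.

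In KO against WT CMP, numbers 1 and 2, 35 of the 110 were lower and 3 higher (median -0.20). Of all 15181 tested genes, 1552 were lower and 1249 higher in that comparison. In numbers 3 and 4, 0 of the 110 passed in either direction (median 0.06), against 0.00659% of all genes. Ero1l, the oxidase that recharges the disulfide isomerases, measured 64.2 and 75.9 CPM in KO CMP 1 and 2 against 144 and 148 CPM in WT CMP 1 and 2, a change of -1.06 ± 0.09 (SE; adjusted p = 6.18e-06). WT CMP 3 and 4, at 74.7 and 70.7 CPM, and KO CMP 3 and 4, at 72.1 and 64.6 CPM, were as low. Ero1l thus set WT CMP 1 and 2 apart from the other 6 CMP libraries. Txndc11, a thioredoxin-domain protein, and Ssr4, a subunit of the translocon-associated TRAP complex, fell by 0.73 ± 0.08 each (SE; adjusted p = 5.88e-05 and 5.97e-05).

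Members with and without an ER stress element in the window can be set side by side. From CMP to GMP in WT, 9 of the 11 members with either element rose, with a median log2 change of 0.59, and 14 of the 18 with a window and neither element rose, with a median of 0.63. In KO against WT CMP, numbers 1 and 2, 7 of 11 fell (median -0.42) against 13 of 18 (median -0.48). Hspa5 and Dnajc3, whose stretches are printed above, were among the strongest falls, and Canx and Creld2, which hold the same element, did not pass. These counts are a description, and no test of the difference was made.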

How the data were processed

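Gene-level values of 15 libraries were used. The kit was SMARTER mRNA-Seq, per the labels' protocols. Alignment was by HISAT on mm10, per the submitters' processing notes. Tool versions, the counter and its strand setting were not given in the sources used here. For each gene symbol the deposited value is an expected count (estimated count) without scaling. Of 40915 values between 1 and 40, 38% were multiples of 4, where an even spread would give 25%. Taking 4 units as about 1 fragment is an assumption, and the fragment totals rest on it.

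Values, all whole numbers, were fitted in R 4.3.3 with edgeR 4.0.16 (filterByExpr, TMM, quasi-likelihood test, Benjamini-Hochberg adjustment over 15181 genes, threshold 0.05). CPM are scaled by TMM. The fit over groups had 1 coefficient per group (11 residual degrees of freedom). The fit over number sets had 8, 1 for each group and set (7 residual degrees of freedom). SE are from the fit, and SD and n refer to libraries. The alternatives were DESeq2 1.42.0, RLE scaling, other filters, counts divided by 4, a replicate block, number set as a covariate, fits within a cell type and leaving out libraries. The test was run on simulated counts drawn independently for each library. That check held no differences between number sets and does not cover them.

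Same-numbered libraries deviated together: the correlation of their deviations from group means was above 0.1 in every pair of the groups compared directly, and in 19 of all 21 pairs (median 0.258). Pairs of other numbers in the same set correlated about as much (median 0.23), and pairs across sets mostly correlated negatively (median -0.26). Deviations from a group mean cancel within the group. A positive correlation within sets thus goes with a negative one across sets, which is no separate finding. The values printed come from fits without a replicate term, and the number as a block is an alternative.

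All 33 members may be named; values per library are given for at most 4 members of a role by smallest p, and 3 genes per direction of the wider list. Those of Hspa5 and Dnajb9 from CMP to GMP and of Calr, Ern1 and Hyou1 in KO GMP 1 were added after their values were seen. The members, lists and number sets were chosen with earlier results of these data known. Fam8a1 of the wider list was not matched. For 27 of 30 member promoter windows the last 30 bases were found, in strand order, in a GENCODE transcript of the gene.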

Additional observations from a re-analysis of the deposited data

Results flagged for a closer look

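A single library lay far from the other 3 of its group in 5 of 99 sets of 4 values examined, and chance alone gives about 5% of such sets. In KO CMP 1, Hyou1, a large Hsp70 relative that exchanges nucleotide on BiP, measured 202 CPM against 257 to 259 CPM in the other KO CMP libraries. Pdia4 measured 128 CPM in the same library against 171 to 175 CPM. Derl3 measured 4.89 CPM in KO CMP 2 against 0.818 to 1.49 CPM in the others, and the summed B and plasma cell markers were also highest in that library, at 534 CPM against 79.6 to 92 CPM. Their part in the Derl3 value was not tested. Pdia3 measured 1450 CPM in WT GMP 4 against 1290 to 1300 CPM, and Atf6b measured 150 CPM in WT GMP 2 against 135 to 136 CPM.

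The effect of the same contrast differed between library number sets. The sets were chosen because the WT libraries of these data part by number, so the counts here are a description. In numbers 1 and 2 the KO libraries were also those with high Xist, and genotype cannot be told apart from that difference. The KO effect in CMP was lower in numbers 1 and 2 than in numbers 3 and 4 for 18 members, and the KO effect in GMP was lower for 7 members. The WT step from CMP to GMP was smaller in numbers 1 and 2 for 7 members.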

How the results depend on the processing

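No member count changed from 0 to above 0 in the KO comparisons over all libraries under any setting run. Members called higher from CMP to GMP ran from 19 to 29 in WT and from 22 to 31 in KO. Members lower in KO CMP numbers 1 and 2 ran from 16 to 28, and the difference between sets in CMP from 14 to 24. With a replicate block, 27 members were higher from CMP to GMP in WT and 30 in KO, and 0 passed for KO against WT in CMP or in GMP or for their difference; the block changed no count of calls by over 1.5 times. Over all genes, DESeq2 called 360 genes for KO against WT in CMP and 60 in GMP, where edgeR called 0. In numbers 3 and 4 DESeq2 called 73 genes higher and 65 lower in CMP, where edgeR called 1, and 13 higher and 30 lower in GMP, where edgeR called 2. For the difference of the WT step between sets it called 493 higher and 814 lower, against 244 and 590 in edgeR.

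Some counts moved by over 1.5 times. DESeq2 gave 12 members for the difference between sets of the KO effect in GMP (7 in edgeR), 11 for the difference of the WT step (7 in edgeR) and 3 higher in WT GMP numbers 1 and 2 (1 in edgeR), where RLE scaling gave 2. Leaving out 1 library at a time moved KO GMP numbers 1 and 2 lower from 15 to between 5 (without WT GMP 1) and 20. It moved the GMP difference between sets from 7 to between 2 (without KO GMP 3, KO GMP 4, WT GMP 1 or WT GMP 3) and 13 (without KO CMP 1 or KO CMP 2). It moved WT CMP numbers 1 and 2 higher from 18 to between 11 (without WT CMP 2) and 19. For WT GMP it gave 0 to 2 higher and 0 to 4 lower. The difference of the WT step ran from 4 (without WT CMP 1, 2 or 3, WT GMP 2 or WT GMP 4) to 11 (without KO CMP 1 or KO CMP 2). Where KO GMP 1 was left out, numbers 1 and 2 held no KO GMP library and gave no value. The causes were not tested. Of the values of single members, 288 lost their call when 1 library was left out, each member, comparison and library counted once, and 3455 kept their side of the threshold. Under the other settings 15 lost it (5 with RLE scaling, 7 with no filter, 1 with DESeq2 and 2 without KO CMP 1, KO CMP 2 and KO GMP 1) and 1076 kept it; no called value turned direction under these settings or the left-out libraries. Number sets of 2 libraries, and 1 KO library in GMP numbers 1 and 2, limit the precision, as does depth for Derl3, whose lowest value was 78 units.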

Other observations

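Some ER genes of the wider list were higher in the 3 KO libraries that stood apart. Fkbp9, an ER prolyl isomerase, measured 56.1 and 50.7 CPM in KO CMP 1 and 2 and 57.7 CPM in KO GMP 1, above the 33.3 to 39.7 CPM of the other CMP libraries and the 27.9 to 29.6 CPM of the other GMP libraries. It passed the test for KO against WT in numbers 1 and 2 in CMP (log2 change 0.61 ± 0.08, SE; adjusted p = 0.000212) and in GMP (1.02 ± 0.10, SE; adjusted p = 2.08e-05). Fkbp10, a chaperone of collagen, measured 3.25, 2.15 and 0.75 CPM in these libraries. It measured 0.17 to 0.80 CPM in the other CMP libraries and 0 to 0.16 CPM in the other GMP libraries. Of 12 stroma and endothelium markers, 8 were higher and 1 lower in KO against WT numbers 1 and 2 in each cell type, with a median log2 difference of 3.09 in CMP and 5.53 in GMP. Cxcl12 measured 91 and 127 CPM in KO CMP 1 and 2 and 48.7 CPM in KO GMP 1, against 0.78 to 15.1 CPM in the other CMP libraries and 0.39 to 2.35 CPM in the other GMP libraries. The summed level, in which Pecam1 and Vcam1 weigh most in GMP, was 305 and 373 CPM in KO CMP 1 and 2 against 158 to 237 CPM in the other CMP libraries, and 271 CPM in KO GMP 1 against 230 to 240 CPM in the other GMP libraries. Their part in the values of Fkbp9 and Fkbp10 was not tested.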
